A study of Homo sapiens with 12 samples.

Results

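The comparison set both control states of the series against each other: K562 cells that carried a scrambled shRNA minus K562 cells that carried an empty vector. K562 is an established human leukemia cell line with erythroid character. The members are 6 of the 12 arrays, 3 per control group, chosen by their sample titles alone. They are described over 11963 genes, each read by its brightest probe set among the 19064 probe sets that the platform annotation pairs with 1 gene symbol.

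In the first control group, empty pEGFP-C2, a plasmid for the green fluorescent protein EGFP without a fused gene, had been introduced by nucleofection, a transient electrical transfection. In the second, a scrambled shRNA in the pLKO vector, a hairpin with no intended target, had been introduced by stable lentiviral infection. The other 6 arrays came from cells nucleofected with a plasmid for EGFP-tagged CXXC5 and from cells infected with lentiviral shRNA against CXXC5, 3 arrays each. All 12 samples had been kept without serum and with recombinant Wnt3a at 100 ng/ml, extraction followed 8 h later, and a 3' in vitro transcription kit labelled 500 ng of total RNA per sample. No group lacked Wnt3a or a vector, so untreated K562 cells were not among those compared. Separate cultures are not stated for the replicates in the labels; p-values therefore cover the variation among these arrays, possibly a technical one. Between the control groups, the delivery route, the vector backbone, the EGFP protein, the hairpin RNA and the time since delivery differ together and cannot be told apart.

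Each delivery route is known to touch cells in its own way. Nucleofection opens membranes and brings plasmid DNA into the cell for a short time, whereas a lentiviral vector integrates into the genome and is carried through selection and growth. A hairpin transcribed from such a vector passes through the cell's own small RNA machinery, and foreign nucleic acid of either kind can be met by sensors that lead to NF-kappaB and interferon genes. Wnt3a, which both groups received, is known to act through Frizzled receptors and beta-catenin.

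Scrambled shRNA replicate 3 stood apart from the other arrays in its control probe sets. Its 3' minus 5' difference for GAPDH was 0.870 log2, against 0.227 to 0.335 in the other 11 arrays, and the spiked-in phe control gave 2.68 against 0.159 to 0.593. The hybridisation control bioC read 10.84 to 11.18 on the scrambled shRNA arrays and 10.62 to 10.70 on the empty vector arrays, and its part in the results was not tested. Array medians lay between 6.65 and 6.71, and replicates of a group correlated at 0.996 to 0.998 across probe sets. Every list below was also counted without scrambled shRNA replicate 3. Markers of the cell line were read as means over all 12 arrays. Of 36 erythroid genes, 29 had a mean level above 7.28, the median over all genes, and of 30 lymphoid markers, 3 did. By control group, the median level of the erythroid genes was 8.73 in empty vector and 8.88 in scrambled shRNA arrays. That of the lymphoid markers was 5.36 and 5.48. The erythroid regulator KLF1 averaged 9.83 in empty vector and 9.85 in scrambled shRNA arrays.

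Expression differed between the controls at many genes, mostly by small amounts. In the limma fit, which adjusts p-values by the Benjamini-Hochberg method, 3768 of 11963 genes passed an adjusted p under 0.05, which is 31.5%; 1935 were higher in scrambled shRNA (16.2%) and 1833 lower (15.3%). Of these calls, 76.3% were under 0.5 log2, and the median absolute difference of called genes was 0.37. The 3 scrambled and the 3 empty vector arrays did not overlap for 45.7% of genes. A difference of at least 2-fold was called for 96 genes, or 0.802%, with 49 higher and 47 lower. The median difference over all genes was 0.02 log2. Without scrambled shRNA replicate 3, 3185 genes were called and 2902 of the calls were kept in the same direction, among them all 96 of at least 2-fold.

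**Figure D1:**
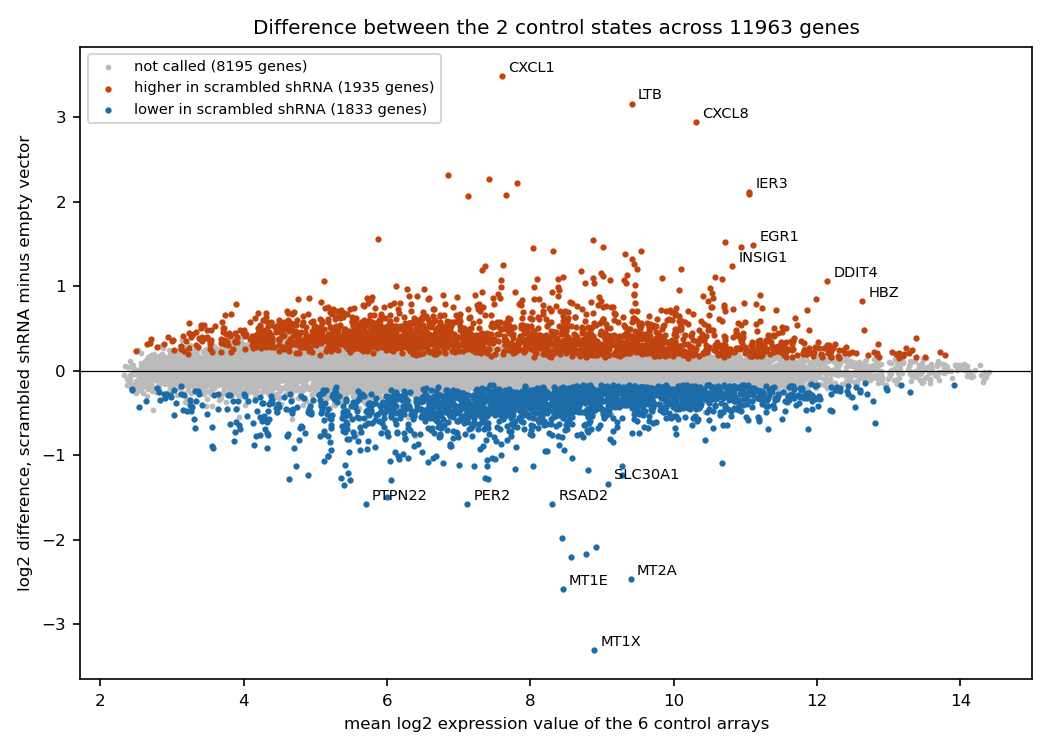
Each point is 1 of 11963 genes, with the mean log2 expression value of the 6 control arrays on the horizontal axis and the log2 difference, scrambled shRNA minus empty vector, on the vertical axis; coloured points passed an adjusted p under 0.05 in limma. CXCL1 (3.49), LTB (3.16) and CXCL8 (2.94) lie at the top and MT1X (-3.31) at the bottom, while most of the 3768 coloured points lie close to the line at 0.

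Chemokine and NF-kappaB target genes were the genes with the largest excess in scrambled shRNA cells. CXCL1, a chemokine that attracts neutrophils, read 6.02, 5.89 and 5.66 in the empty vector arrays and 9.29, 9.54 and 9.22 in the scrambled shRNA arrays. All 3 scrambled arrays lay more than 3 log2 above every empty vector array, a difference of 3.49 log2 (SE 0.138, 11.2-fold, limma adjusted p = 2.72e-08). LTB, which encodes lymphotoxin beta, a membrane-bound cytokine of the TNF family, read 7.86, 7.83 and 7.81 against 10.92, 11.13 and 10.93. The spread within each LTB group was small beside the difference of 3.16 log2 (SE 0.0697, 8.95-fold, adjusted p = 1.06e-10). CXCL8, the neutrophil attractant interleukin 8, read 9.04, 8.71 and 8.79 against 11.65, 11.84 and 11.87, a 7.69-fold difference, and its other, dimmer probe set differed by 1.82 log2.

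The promoters of CXCL1 and LTB are shown because these genes led the comparison and NF-kappaB sites are known to drive genes of this kind. The sequences are the 250 bases before the RefSeq start site (GRCh38.p14), read 5′ to 3′ on the gene's strand, at chr4:73869143-73869392 on the plus strand for CXCL1 and chr6:31582426-31582675 on the minus strand for LTB. Capitals mark matches, on either strand, to a common form of the NF-kappaB site: GGGA or GGGG, any base, TT, any base, CC.
CXCL1: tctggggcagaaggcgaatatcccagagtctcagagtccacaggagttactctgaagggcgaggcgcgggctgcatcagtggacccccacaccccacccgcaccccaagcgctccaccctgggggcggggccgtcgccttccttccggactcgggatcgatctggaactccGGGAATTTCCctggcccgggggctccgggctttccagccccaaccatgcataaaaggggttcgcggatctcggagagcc
LTB: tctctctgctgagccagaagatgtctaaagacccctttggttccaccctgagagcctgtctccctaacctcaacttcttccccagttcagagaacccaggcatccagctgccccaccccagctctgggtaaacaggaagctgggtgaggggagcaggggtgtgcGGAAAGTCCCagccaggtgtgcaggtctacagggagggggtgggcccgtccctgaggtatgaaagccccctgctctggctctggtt
CXCL1 held 1 match, GGGAATTTCC, starting 79 bases before the start site, and LTB held 1 on the other strand, GGAAAGTCCC, 86 bases before it. In windows of 300 bases, from 250 before to 50 after the start, 965 of 27305 genes in the table held a match (3.53%), and 423 of the 9563 tested genes with a window (4.42%). Of the NF-kappaB list, 12 of 24 members with a window held a match, and of the chemokines 7 of 21. CXCL1, CXCL2, CXCL3 and CXCL10 held one and were higher, CXCL8 was higher without one, and CXCL5 held one and was lower by 0.27 log2, a call lost without scrambled shRNA replicate 3. The matches are letters in a window and no measure of binding.

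Of 27 chemokines measured, 12 were higher and 3 lower, or 44.4% and 11.1%, against 16.2% and 15.3% of all genes, with a median of 0.20 log2. Without scrambled shRNA replicate 3 the counts fell to 9 higher and 2 lower. CXCL2, a neutrophil attractant, differed by 2.32 log2, CXCL10, an interferon-inducible attractant of T cells, by 2.27, CXCL3 by 2.22 and CCL4, a monocyte attractant, by 2.08. With CXCL1 and CXCL8, these were the 6 largest differences of the list, the smallest being 4.22-fold for CCL4. In none of the 6 did arrays overlap between groups, as was so for 45.7% of all genes. The rule for naming the largest differences required this. The remaining 6 higher members were dim, with differences of 0.28 to 0.48, and 5 members were called higher and 1 lower after the dimmest 40% of genes had been dropped. CCL2, the monocyte attractant MCP-1, went the other way, from 7.34 to 6.45 (-0.89, adjusted p = 7.6e-05), and CCL5 fell by 0.47.

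The NF-kappaB list, which holds the subunits, their inhibitors and other targets, had 19 higher members and 1 lower of 29. These are 65.5% and 3.45%, against 16.2% and 15.3% of all genes. The list median was 0.62 log2 beside 0.02 over all genes. Counts without scrambled shRNA replicate 3 were the same. Among targets, IER3, an early response gene that modulates cell survival, read 10.06, 9.95 and 9.97 against 12.19, 12.28 and 11.85, a 4.33-fold difference. CD69, an activation marker of lymphocytes, differed by 1.46 log2 and ICAM1, an adhesion receptor, by 1.46; the other ICAM1 probe sets stood at 1.26 and 0.81. IL6 and TNF, inflammatory cytokines, differed by 1.20 and 0.86. Of the pathway's own parts, 6 were higher: the subunits NFKB2 (0.78), RELB (0.79) and NFKB1 (0.63), the inhibitors NFKBIA (0.73) and NFKBIE (0.62), and the deubiquitinase TNFAIP3, a brake on the pathway, at 0.94. RELA, the main activating subunit, stood at 9.07 and 9.06, with an adjusted p of 0.95, and the subunit REL (0.05) and the inhibitor NFKBIB (-0.13) did not pass either. IRF1, an interferon response factor, was the lower member (-0.29). The lower count was 2 without scrambled shRNA replicate 1 and 2 without scrambled shRNA replicate 2.

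Immediate early genes, which answer growth factor and stress signals through ERK and SRF within minutes, were higher as well. Of 40, 26 were higher and 1 lower (65% and 2.5%, against 16.2% and 15.3% of all genes), with a median of 0.37 log2. Without scrambled shRNA replicate 3 the counts were 25 and 1. EGR1, a zinc finger transcription factor, read 10.44, 10.31 and 10.34 in empty vector and 11.83, 11.91 and 11.82 in scrambled shRNA arrays, 2.81-fold apart (adjusted p = 7.99e-08). Its dimmer probe set differed by 1.71 log2, and no array of the groups overlapped. EGR3, a relative of EGR1, was 4.19-fold higher and ZFP36, which binds mRNAs and hastens their decay, 2.74-fold. The feedback inhibitors of ERK signalling SPRY4 (1.27) and SPRY2 (0.75) were higher, with PHLDA1 (1.20) and the EGR corepressors NAB2 (0.80) and NAB1 (0.51). Of the AP-1 subunits, FOSB (0.08) and FOSL1 (0.05) did not pass, and those that did stood at 0.35 for FOSL2, 0.96 for FOS, 0.72 for JUNB, 0.72 for JUND and 0.66 for JUN, while the other 3 JUN probe sets stood at 0.16 to 0.25 and did not pass. MAFF, a small MAF protein outside this list, was 2.92-fold higher, or 0.74 log2 at its other probe set. The lower member was CCN1, a matrix-associated protein, at -0.23. Its call did not stand without empty vector replicate 2 or 3 or without scrambled shRNA replicate 1 or 2, where the lower count was 0.

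Metallothioneins, which hold zinc and copper ions on their cysteines, were the genes with the largest deficit. MT1X read 10.12, 10.95 and 10.57 in the empty vector arrays and 7.34, 7.14 and 7.23 in the scrambled shRNA arrays. The difference was -3.31 log2 (SE 0.155, 9.90-fold, limma adjusted p = 8.55e-08), and a further MT1X probe set gave -3.80. MT2A read 10.07, 11.08 and 10.73 against 8.07, 8.11 and 8.32, 5.50-fold lower. For both genes the empty vector arrays spread over more than the scrambled arrays, with replicate 1 lowest and replicate 2 highest, and the groups stayed more than 1 log2 apart. MT1E (-2.58), MT1H (-2.21), MT1G (-2.17), MT1HL1 (-2.08) and MT1F (-1.97) behaved alike, each with empty vector replicate 1 lowest and replicate 2 highest of its group. Thus 7 of 10 measured metallothioneins were lower and 0 higher, also without scrambled shRNA replicate 3, with a list median of -2.12. That is 70% lower, against 15.3% of all genes. Each of the 7 was read by a probe set of the cross-hybridising type, which limits how far one family member can be told from another. A dim MT1G probe set without that property (mean 4.27) stood at 0.21 and did not pass. MT3 (0.24), MT1M (0.00) and MT4 (-0.07), with means of 5.77, 3.15 and 6.34 in empty vector arrays, did not pass.

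Promoters of MT1X and MT2A are shown because metallothionein genes are known to be switched by the zinc sensor MTF1 through metal response elements. They are the 250 bases before the RefSeq start (GRCh38.p14, plus strand), at chr16:56682220-56682469 and chr16:56608334-56608583. Capitals mark the core of that element, TGCACNC or TGCGCNC, on either strand.
MT1X: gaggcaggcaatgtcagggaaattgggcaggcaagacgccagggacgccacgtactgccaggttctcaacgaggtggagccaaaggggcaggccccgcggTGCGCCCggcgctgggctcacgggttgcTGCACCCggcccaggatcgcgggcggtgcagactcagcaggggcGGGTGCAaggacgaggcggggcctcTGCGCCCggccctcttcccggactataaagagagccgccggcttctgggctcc
MT2A: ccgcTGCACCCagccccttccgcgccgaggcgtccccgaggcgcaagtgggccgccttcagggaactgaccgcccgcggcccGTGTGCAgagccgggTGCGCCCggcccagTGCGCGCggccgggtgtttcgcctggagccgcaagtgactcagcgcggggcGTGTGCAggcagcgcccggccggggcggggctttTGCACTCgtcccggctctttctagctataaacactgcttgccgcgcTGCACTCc
MT1X held 4 matches and MT2A 7 in the bases shown, with 1 more in MT2A after the start site. No match overlapped another in these windows. All 4 measured metallothioneins with a window, MT1H, MT1X, MT2A and MT4, held the core; MT4 was not called. The core is short, and 9128 of all 27305 genes with a window (33.4%) held it, as did 43.3% of the tested genes.

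SLC30A1, the zinc exporter of the plasma membrane and another gene known to respond to zinc through MTF1, read 9.68, 9.87 and 9.70 in empty vector and 8.55, 8.29 and 8.39 in scrambled shRNA arrays. Its groups lay more than 1 log2 apart, a 2.52-fold deficit (adjusted p = 9.93e-07). MTF1 itself stood at 7.69 and 7.37 and did not pass (adjusted p = 0.074). Of 16 zinc transporters with MTF1, 4 were lower and 3 higher, or 25.0% and 18.8%, against 15.3% and 16.2% of all genes. SLC30A5, which loads the secretory pathway, was lower by 0.36, and SLC30A3, a vesicular transporter, higher by 0.45. SLC39A2, an importer, was higher by 0.36, a call lost without any of 5 of the 6 arrays. The higher count was 1 without empty vector replicate 2 and 2 without scrambled shRNA replicate 3.

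**Figure D2:**
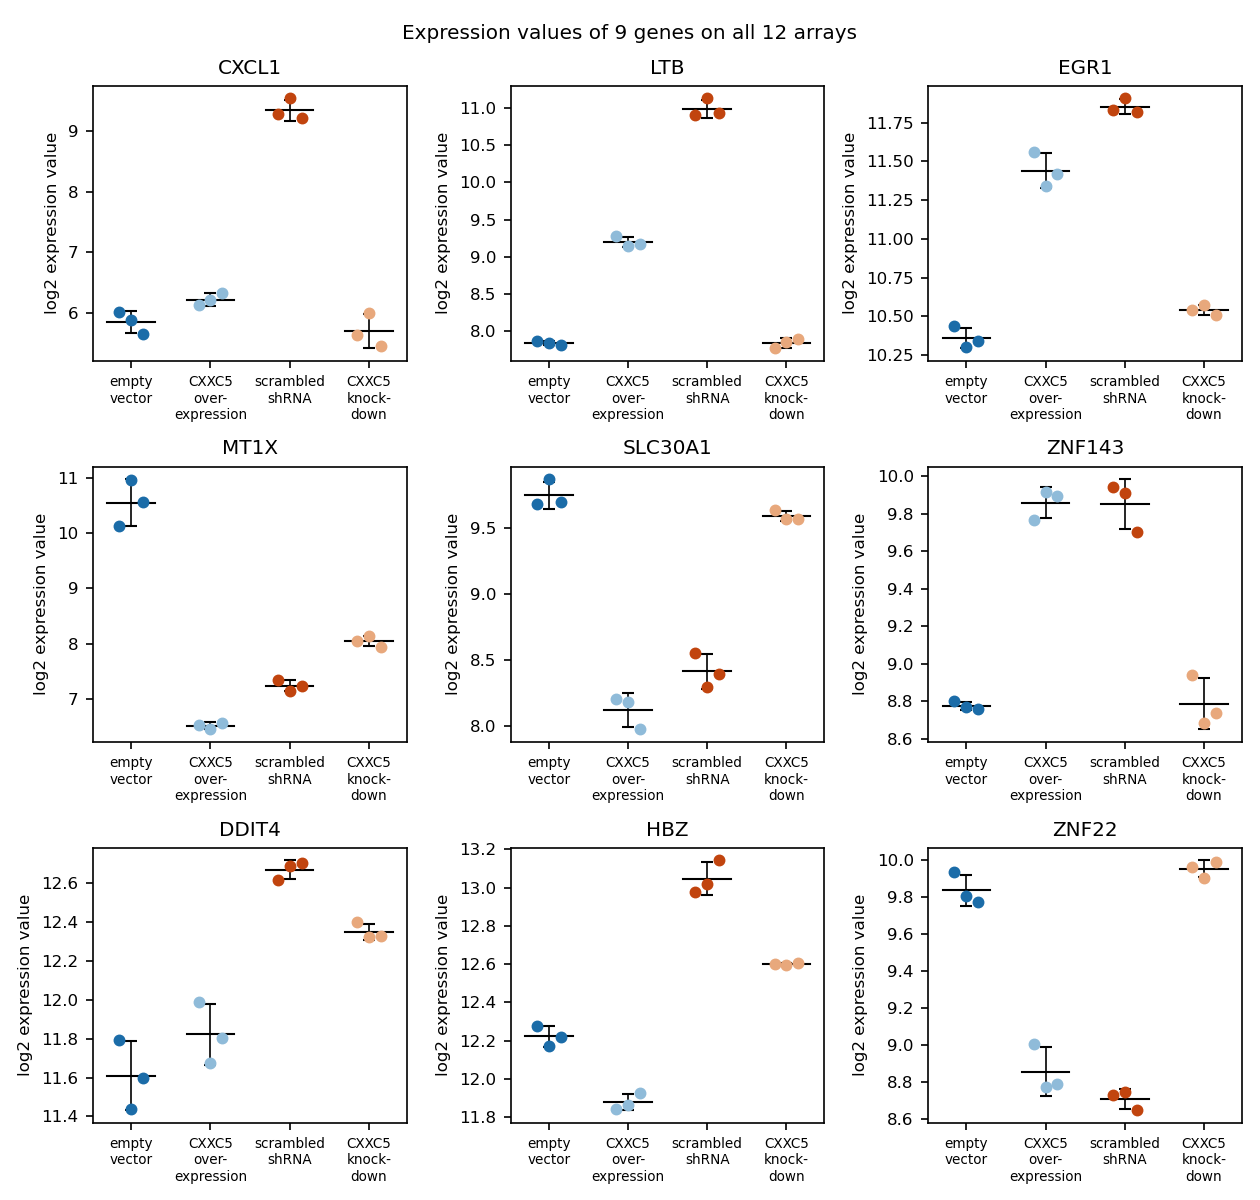
Log2 expression values of 9 genes, 1 point per array and 4 groups of 3 arrays, with the group mean as a line and the SD as bars; each panel has its own vertical axis, which does not start at 0. CXCL1 and LTB were highest in scrambled shRNA, MT1X was highest in empty vector, SLC30A1 and ZNF22 were low and ZNF143 high in both scrambled shRNA and overexpression arrays, and DDIT4 and HBZ were higher in both lentiviral groups than in both nucleofected groups.

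Genes of the ATF4 pathway, which answers amino acid shortage and other stresses, were higher in scrambled shRNA cells in 15 of 34 cases and lower in 2. These are 44.1% and 5.88%, against 16.2% and 15.3% of all genes, with a list median of 0.21 log2. GDF15, a stress-induced cytokine, read 10.24, 9.86 and 9.90 against 12.18, 12.40 and 11.70, a 4.27-fold difference, with a dim probe set at 0.31 that did not pass. DDIT3, the stress factor CHOP, read 9.42, 9.11 and 9.34 against 10.21, 10.36 and 10.59. DDIT4, an inhibitor of mTORC1, read 11.79, 11.44 and 11.60 against 12.61, 12.69 and 12.70. DDIT3 and DDIT4 were thus 2.14-fold and 2.08-fold higher, with no overlap of arrays. VEGFA, the endothelial growth factor, was 2.15-fold higher and SLC7A11, the cystine importer, 1.80-fold, though a dim SLC7A11 probe set stood at 0.13. ATF5, a relative of ATF4, fell by 0.53 and PHGDH, which opens serine synthesis, by 0.21. The lower count was 1 without empty vector replicate 1, and the counts without scrambled shRNA replicate 3 were 14 and 2.

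Endoplasmic reticulum chaperones, by contrast, were lower in 11 of 34 cases and higher in 3, with a median of -0.05 log2 beside 0.02 over all genes. The calls are 32.4% lower and 8.82% higher, against 15.3% and 16.2% of all genes. SDF2L1, a stress-inducible co-factor of protein folding, read 11.61, 11.67 and 11.70 against 11.001, 10.87 and 11.04, and HSPA5, the central chaperone BiP, read 12.48, 12.40 and 12.38 against 11.98, 12.01 and 11.88. Neither gene's groups overlapped, and the differences were -0.69 (SE 0.0602) and -0.47 (SE 0.0561). The disulfide isomerase PDIA4 (-0.47) and the chaperone HSP90B1 (-0.43) also fell. The PDIA4 call ended without empty vector replicate 1 or scrambled shRNA replicate 3, and that of HSP90B1 without empty vector replicate 1, and HSP90B1 stood at -0.28 without scrambled shRNA replicate 3. The count of lower members rested on these arrays: it was 5 without empty vector replicate 1 and 7 without scrambled shRNA replicate 3. EDEM1, which sorts misfolded glycoproteins for degradation, was the largest of the 3 higher members, at 0.35.

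The promoters of the leading chaperone genes, SDF2L1 and HSPA5, are shown with matches to the endoplasmic reticulum stress element, in capitals: CCAAT, 9 bases of any kind, then CCACG. They are the 250 bases before the RefSeq start (GRCh38.p14), at chr22:21642052-21642301 on the plus strand and chr9:125241344-125241593 on the minus strand.
SDF2L1: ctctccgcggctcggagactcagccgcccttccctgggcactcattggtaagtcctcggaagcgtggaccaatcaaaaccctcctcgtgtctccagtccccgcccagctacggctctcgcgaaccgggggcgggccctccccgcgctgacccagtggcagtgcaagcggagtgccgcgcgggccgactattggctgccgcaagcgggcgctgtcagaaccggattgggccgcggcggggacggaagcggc
HSPA5: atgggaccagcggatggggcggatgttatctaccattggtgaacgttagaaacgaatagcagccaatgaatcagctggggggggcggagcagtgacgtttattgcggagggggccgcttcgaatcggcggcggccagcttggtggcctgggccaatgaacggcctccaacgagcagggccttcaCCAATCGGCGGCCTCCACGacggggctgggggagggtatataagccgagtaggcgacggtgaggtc
HSPA5 held 1 match, starting 66 bases before the start site, and SDF2L1 held 0 on either strand of its window. Of 32 list members with a window, 8 held the element, against 25 of 27305 genes in the table (0.0916%). Of the members that fell, 3 of 10 with a window held it, namely CRELD2, whose call was lost without scrambled shRNA replicate 3, HSP90B1 and HSPA5.

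Sterol synthesis genes, most of them targets of SREBF2, were higher in 14 of 26 cases and lower in 1, with a median of 0.30 log2. These are 53.8% and 3.85%, against 16.2% and 15.3% of all genes. Without scrambled shRNA replicate 3 the counts were 15 and 1. INSIG1, which holds SREBP precursors in the endoplasmic reticulum, read 10.34, 10.05 and 10.19 against 11.37, 11.50 and 11.45. The groups lay about 1 log2 apart at their nearest arrays, and the mean difference was 1.24 (SE 0.0755, 2.37-fold); the other INSIG1 probe sets stood at 0.64 and 0.87. The synthesis enzymes MSMO1 (0.92), HMGCS1 (0.80) and DHCR7 (0.65) followed, as did SREBF2 itself (0.43). SREBF1, the relative that favours fatty acid genes, was the lower member (-0.38).

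Hypoxia and glycolysis genes were higher in 19 of 42 cases and lower in 3 (45.2% and 7.14%, against 16.2% and 15.3% of all genes), with a median of 0.21. ADM, a vasodilator peptide, read 4.99, 5.05 and 5.23 against 6.42, 6.98 and 6.55, 2.95-fold higher. The glycolytic enzyme ALDOC differed by 1.09, the glucose transporter SLC2A3 by 0.79, and the mitophagy receptors BNIP3L by 0.78 and BNIP3 by 0.55; VEGFA and DDIT4 are also on this list. Lower members were PDK3 (-0.42), PLOD2 (-0.23, lost without scrambled shRNA replicate 3) and HK2 (-0.16). The lower count was 0 without empty vector replicate 1, 0 without empty vector replicate 2 and 1 without scrambled shRNA replicate 2, while the higher count without scrambled shRNA replicate 3 was 20. Antioxidant and NRF2 target genes had 9 higher and 3 lower members of 35, or 34.3% called, near the 31.5% of all genes. SLC7A11 and the glutathione transferase GSTM3 (0.43) were higher and NQO1 (-0.36) and KEAP1 (-0.30), the repressor of NRF2, lower. NQO1 stood at -0.21 without scrambled shRNA replicate 3, its call ended without empty vector replicate 1, and its other probe sets gave -0.40 and -0.36. The lower count there was 1 without empty vector replicate 1 and 2 without scrambled shRNA replicate 3.

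Chaperones of the cytosol and heat shock genes had 2 higher and 9 lower members of 33, or 33.3% called, near the 31.5% of all genes. SERPINH1, a collagen chaperone of the endoplasmic reticulum, fell by 0.56, the chaperonin subunit CCT6A by 0.36 and the HSP70 partner DNAJA1 by 0.34, while HSPA6, a strictly inducible HSP70, was higher by 0.47. The lower count was 4 without empty vector replicate 2. Among 16 aminoacyl-tRNA synthetases, which charge tRNAs with amino acids, 43.75% were called. CARS1 (0.36) and WARS1 (0.34) were higher, and EPRS1 (-0.41) and RARS1 (-0.28) lower. The 3 higher calls were counted in every setting, but the 4 lower calls became 1 without empty vector replicate 1, empty vector replicate 2 or scrambled shRNA replicate 2, and 2 without empty vector replicate 3, scrambled shRNA replicate 1 or scrambled shRNA replicate 3. Other EPRS1 probe sets stood at -0.13 and 0.13.

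Interferon-stimulated genes did not share the direction of the chemokines. Of 42, 11 were lower and 4 higher, with a median of -0.11 log2, and 35.7% were called, near the 31.5% of all genes. RSAD2, the antiviral protein viperin, read 9.14, 9.16 and 8.99 in empty vector and 7.61, 7.55 and 7.38 in scrambled shRNA arrays, 2.99-fold lower (adjusted p = 5.75e-07). TRIM22, an antiviral ubiquitin ligase, fell by 1.21, and the immunoproteasome subunits PSMB9 and PSMB8 fell by 1.00 and 0.77. The arrays of these 4 genes did not overlap between groups. IFIT3 (-0.51) and MX2 (-0.48) were lower, the MX2 call being lost without empty vector replicate 3, scrambled shRNA replicate 1 or scrambled shRNA replicate 3. The membrane proteins IFITM1, IFITM2 and IFITM3, which block viral entry, were higher by 0.18 to 0.27, the call of IFITM1 being lost without scrambled shRNA replicate 3. The count of 4 higher members became 2 without any of the arrays other than scrambled shRNA replicate 1, and the 11 lower calls were also 11 without scrambled shRNA replicate 3.

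Sensors of foreign RNA and DNA had 2 higher and 6 lower members of 21, a share called of 38.1%, near the 31.5% of all genes. AIM2, a cytosolic DNA sensor of the inflammasome, was higher by 0.60, while TBK1, the kinase that relays sensor signals to interferon genes, fell by 0.67, the DNA sensor IFI16 by 0.50 and MAVS, the adaptor of the RNA sensors, by 0.48. A dimmer IFI16 probe set gave -1.16. Higher calls numbered 1 without empty vector replicate 1 or 3 or scrambled shRNA replicate 2 or 3, and the lower count was 5 without scrambled shRNA replicate 3. AIM2 kept its call without each array in turn.

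Factors that process small RNAs had 6 lower and 1 higher member of 19, or 36.8% called, near the 31.5% of all genes. AGO1, which loads small RNAs for silencing, read 8.82, 8.88 and 8.87 against 8.62, 8.36 and 8.48, a difference of -0.37 that kept its call without each array. DICER1, which cuts hairpins, was at -0.28, and its partner TARBP2 at -0.22. SND1, a nuclease of the silencing complex, was higher by 0.26. The calls of DICER1, TARBP2 and SND1 ended without empty vector replicate 2 or scrambled shRNA replicate 2, and the lower count became 1 without either array and 3 without empty vector replicate 1. Higher calls numbered 0 without either of those arrays and 2 without scrambled shRNA replicate 3.

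Host factors that help or restrict lentiviruses were called in both directions, 5 higher and 6 lower of 26. That is 42.3% called, against 31.5% of all genes. The counts were 6 higher and 5 lower without scrambled shRNA replicate 2. SAMHD1, which drains the nucleotides that reverse transcription needs, fell by 0.74, CPSF6, a nuclear import factor for the viral core, by 0.47, and the nuclear pore protein RANBP2 by 0.38. Higher calls here numbered 3 without empty vector replicate 1, scrambled shRNA replicate 1 or scrambled shRNA replicate 3, 2 without empty vector replicate 3 and 1 without empty vector replicate 2. Membrane repair genes had 3 higher and 5 lower members of 27, or 29.6% called, below the 31.5% of all genes. The majority turned to 5 higher and 3 lower with the mean of a gene's probe sets. DYSF, a repair protein of the plasma membrane, was higher by 0.49 and the ESCRT component TSG101 by 0.37, while PDCD6, a calcium sensor of that machinery, fell by 0.33 at its brightest probe set. The other PDCD6 probe sets stood at -0.10 and 0.03, and its call ended with the mean of the 3. MYOF, a relative of DYSF, was at -0.55, a call lost without any empty vector array, without scrambled shRNA replicate 1, and when its probe sets were averaged. The counts were 5 higher and 6 lower without scrambled shRNA replicate 3 and 4 higher and 3 lower without empty vector replicate 1.

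Wnt pathway genes were called in both directions in similar numbers. Of 57 ligands, receptors and pathway proteins, 10 were higher and 12 lower, or 17.5% and 21.1%, close to the 16.2% and 15.3% of all genes. Which side held more calls turned with median centring (12 and 10) and without scrambled shRNA replicate 2 (9 and 8). FZD3, a Wnt receptor, read 7.75, 7.77 and 7.74 against 7.05, 6.97 and 6.47, a difference of -0.92, or -0.74 without scrambled shRNA replicate 3. The corepressors TLE2 and TLE3 went opposite ways, at 0.67 and -0.56, with the other probe sets of each in the same direction. WNT6 was at 0.57, while its 3 dimmer probe sets stood at 0.03 to 0.19 and did not pass. The higher count was 6 without empty vector replicate 1, scrambled shRNA replicate 1 or scrambled shRNA replicate 3, and 5 without empty vector replicate 2. Of 27 Wnt target genes, 5 were higher and 4 lower (33.3% called, against 31.5% of all genes), or 8 and 4 without scrambled shRNA replicate 3. VEGFA is among them, and ID2, an inhibitor of helix-loop-helix factors, differed by 1.02 and the factor TCF4 by -0.45; 3 of the other 6 TCF4 probe sets did not pass.

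BMP and TGF-beta targets had 9 higher and 5 lower members of 29, or 48.3% called against 31.5% of all genes. CDKN1A, an inhibitor of cyclin-dependent kinases, read 8.12, 8.02 and 8.20 against 9.23, 9.39 and 9.25, 2.26-fold higher, whereas SKIL, a SMAD repressor, fell by 1.00 and ID3 by 0.74. SKIL stood at -0.75 without scrambled shRNA replicate 3, and its dimmer probe sets gave -1.60 and -0.16, the latter not past the threshold. Of 22 genes known as p53 targets, a set of interest because K562 cells lack functional p53, 6 were higher and 6 lower (54.5% called). GDF15 and CDKN1A belong to it, with the death receptor TNFRSF10B at 0.75 and TIGAR, which dampens glycolysis, at -0.99. Apoptosis regulators had 8 higher and 3 lower members of 32, a share called of 34.4% against 31.5% of all genes, and with the mean of a gene's probe sets the majority turned, to 5 higher and 6 lower. CFLAR, which blocks caspase-8, was 2.12-fold higher, with its 10 other probe sets at 0.14 to 1.07, while XIAP, a caspase inhibitor, was at -0.74, a call lost without scrambled shRNA replicate 3, with its other probe set at -0.10. Among 16 DNA methylation and CpG-binding factors, 31.25% were called, near the share of all genes. The methyltransferase DNMT3B fell by 0.45, its arrays at 10.32, 10.29 and 10.28 against 9.86, 9.82 and 9.86, and MBD2 was at -0.39. The other 3 MBD2 probe sets stood at 0.13, -0.11 and -0.04, and its call ended with the mean of its probe sets. TET1 (-0.31) and KMT2B (0.25) lost their calls without most single arrays, where the single higher call became 0 without empty vector replicate 1 or 3 or scrambled shRNA replicate 1 or 3. The 4 lower calls became 2 without empty vector replicate 2 or scrambled shRNA replicate 2.

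Globin genes of the embryonic stage were higher in scrambled shRNA cells. HBZ, embryonic zeta globin, read 12.28, 12.17 and 12.22 against 12.98, 13.02 and 13.14, and HBE1, epsilon globin, 11.04, 11.11 and 11.07 against 11.77, 11.73 and 11.88. Neither gene's groups overlapped, and the differences were 0.82 (SE 0.0595) and 0.72 (SE 0.0584), although a dim HBE1 probe set stood at -0.09. HBB, HBQ1 and HBD, at 0.27, 0.11 and -0.07, did not pass, so 2 of 5 globins were called, both higher. That is 40%, near the 31.5% of all genes. The other erythroid genes were split, 11 higher and 8 lower of 36 (30.6% and 22.2%, against 16.2% and 15.3% of all genes). The counts were 11 and 7 without scrambled shRNA replicate 3 and 9 and 11 with the mean of a gene's probe sets. The transferrin receptor TFRC (0.39) and the haem synthesis enzymes CPOX (0.57) and ALAS1 (0.42) were higher. GATA1, the master regulator of the lineage, fell from 10.70, 10.53 and 10.64 to 10.15, 10.11 and 9.82 (-0.60), TAL1 and NFE2 each fell by 0.30, and ALAD, a haem synthesis enzyme, fell by 0.58. EPOR, the erythropoietin receptor, was at 0.85, but its 4 dimmer probe sets stood at -0.22 to 0.21 and its call ended with the mean of its probe sets.

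Genes of other blood lineages were called in both directions. Megakaryocyte genes had 5 higher and 2 lower members of 25, or 28% called, below the 31.5% of all genes. The adaptor LAT stood at 0.58 (0.07 at its other probe set), PLEK at 0.42 (0.11 at its other) and THBS1, thrombospondin 1, at -1.27. The THBS1 value rests on its brightest probe set, since the other 4 stood at -0.13 to 0.31. The lower count there was 1 without empty vector replicate 1 or 2 or scrambled shRNA replicate 1 or 2, and 3 without scrambled shRNA replicate 3. Myeloid genes had 9 higher and 5 lower members of 35, with 40% called. After the dimmest 40% of genes had been dropped, 3 were higher and 2 lower. Their summed linear values were 8450 to 8700 in empty vector and 9150 to 9740 in scrambled shRNA arrays. The Fc receptor FCGR2A differed by 0.93, the granule proteins AZU1 and PRTN3 by 0.81 and 0.51, and NCF4, a subunit of the phagocyte oxidase, by -0.50. PRG2, the granule major basic protein, which is on no list, read 9.96, 9.95 and 9.96 against 11.46, 11.38 and 11.60, 2.89-fold higher.

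Markers of cell types that the line does not belong to were also read. Of 30 lymphoid markers, 8 were higher and 1 lower, or 30% called against 31.5% of all genes. CD52 stood at 0.73, CD8A at 0.59, PRF1 at 0.53 and IGHM at 0.57. The other 4 IGHM probe sets stood at -0.16 to 0.16, and the IGHM call ended with the mean of its probe sets. The lower count was 2 without empty vector replicate 1 or scrambled shRNA replicate 3. The sum of the lymphoid linear values was 4450 to 4650 in empty vector, 5540 to 6900 in scrambled shRNA, 5760 to 6690 in overexpression and 5400 to 5540 in knockdown arrays. CD52, a bright member that weighs heavily in this sum, averaged 10.46 in empty vector and 11.19 in scrambled shRNA arrays. The median difference of the list was 0.16 log2. Of 30 fibroblast, endothelial and epithelial markers, 5 were higher and 0 lower, or 16.7% called, with a median of 0.08 log2. Their linear sums were 13600 to 14200 in empty vector and 14800 to 15500 in scrambled shRNA arrays. FN1, fibronectin, differed by 0.90, from a mean of 10.75 in empty vector to 11.66 in scrambled shRNA arrays. Bright members of this kind weigh most in a linear sum, so the sums do not show a shift of a whole list. TEK, an endothelial receptor, differed by 0.60, and a dim TEK probe set stood at -0.09. Without empty vector replicate 2, scrambled shRNA replicate 2 or scrambled shRNA replicate 3 the higher count of this list was 3, and without empty vector replicate 3 the lower count was 2. No member of either list was listed at 0. T and B cell markers such as MS4A1 (4.59 and 4.58), CD3E (6.16 and 6.26) and CD79A (5.54 and 5.33) and fibroblast markers such as LUM (2.56 and 2.53) and COL3A1 (3.88 and 3.96) stood below the median gene in both control groups and did not pass. Whether other cells contributed to the results was not tested.

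Cell cycle genes were called at unequal shares: 14.6% of the G1/S list, 15.9% of the histone genes and 34% of the G2/M list, against 31.5% of all genes. Of 48 G1/S and replication genes, 3 were higher and 4 lower, with the histone mRNA factor SLBP (-0.48), MCM10 (-0.48) and cyclin D3, CCND3 (-0.47), lower. The higher count was 0 without empty vector replicate 3, 1 without scrambled shRNA replicate 2 and 2 without scrambled shRNA replicate 3. Of 53 G2/M genes, 7 were higher and 11 lower, with CDC20 (-0.38), an activator of the anaphase complex, and TACC3 (-0.39) lower in each setting. The lower count was 6 without empty vector replicate 1 or 2, and the higher count 2 without empty vector replicate 3 and 4 without scrambled shRNA replicate 3. Of 44 histone genes, 3 were higher and 4 lower; H2BC21 (0.36) kept its call without each array, and those of H3C7, H2BC15 and H3C2 did not. The histone counts moved with single arrays: higher became 1 without empty vector replicate 2 or 3 or scrambled shRNA replicate 3 and 7 without scrambled shRNA replicate 1, and lower became 1 without empty vector replicate 2 and 2 without scrambled shRNA replicate 2.

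Mitochondrial ribosomal proteins were lower in 18 of 49 cases and higher in 1 (36.7% and 2.04%, against 15.3% and 16.2% of all genes), with a median of -0.13 log2. Without scrambled shRNA replicate 3 the counts were 22 and 2. MRPL12 read 10.74, 10.80 and 10.82 against 10.26, 10.25 and 10.09, a difference of -0.58, and MRPS12 11.44, 11.62 and 11.55 against 11.03, 11.06 and 11.07, a difference of -0.48. MRPL19 (-0.40) and MRPS2 (-0.39) were alike, and all 4 kept their calls without each array. The higher count was 0 without empty vector replicate 1 or 2 or scrambled shRNA replicate 2, and 2 without scrambled shRNA replicate 1. Cytosolic ribosomal proteins differed in 3 of 52 cases (5.77%, against 31.5% of all genes), all higher, at 0.16 to 0.22 for RPL8, RPL14 and RPL3. That count was 0 without empty vector replicate 2 or 3 or scrambled shRNA replicate 2 and 1 without scrambled shRNA replicate 3. Oxidative phosphorylation subunits had 8 higher and 1 lower member of 62, NDUFA13 (0.27) and CYC1 (-0.32) among them. Their higher count was 1 without empty vector replicate 2, 3 without empty vector replicate 3 and 4 without scrambled shRNA replicate 3.

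Proteasome subunits had 2 higher and 6 lower members of 35, or 22.9% called against 31.5% of all genes. PSMD11 stood at -0.54, PSMD12 at -0.35 and PSMC2 at -0.35. Dimmer or other probe sets of these 3 genes stood at -0.09, -0.16 and -0.18. PSMD11 stood at -0.36 without scrambled shRNA replicate 3, and the higher count was 1 without empty vector replicate 2. Genes named ZNF, many of them KRAB zinc finger factors, a class known for silencing transposons, were lower in 60 of 235 cases and higher in 14, which is 25.5% and 5.96% against 15.3% and 16.2% of all genes. Without scrambled shRNA replicate 3, 52 were lower and 11 higher. ZNF22 read 9.93, 9.80 and 9.78 against 8.73, 8.75 and 8.65, 2.19-fold lower, and its other probe set gave -1.37. ZNF629 fell by 1.13 and ZNF551 by 1.12. ZNF143, an activator of snRNA and many promoters, went the other way, from 8.80, 8.77 and 8.76 to 9.95, 9.91 and 9.70, 2.11-fold higher, with a dim probe set at 0.18.

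**Figure D3:**
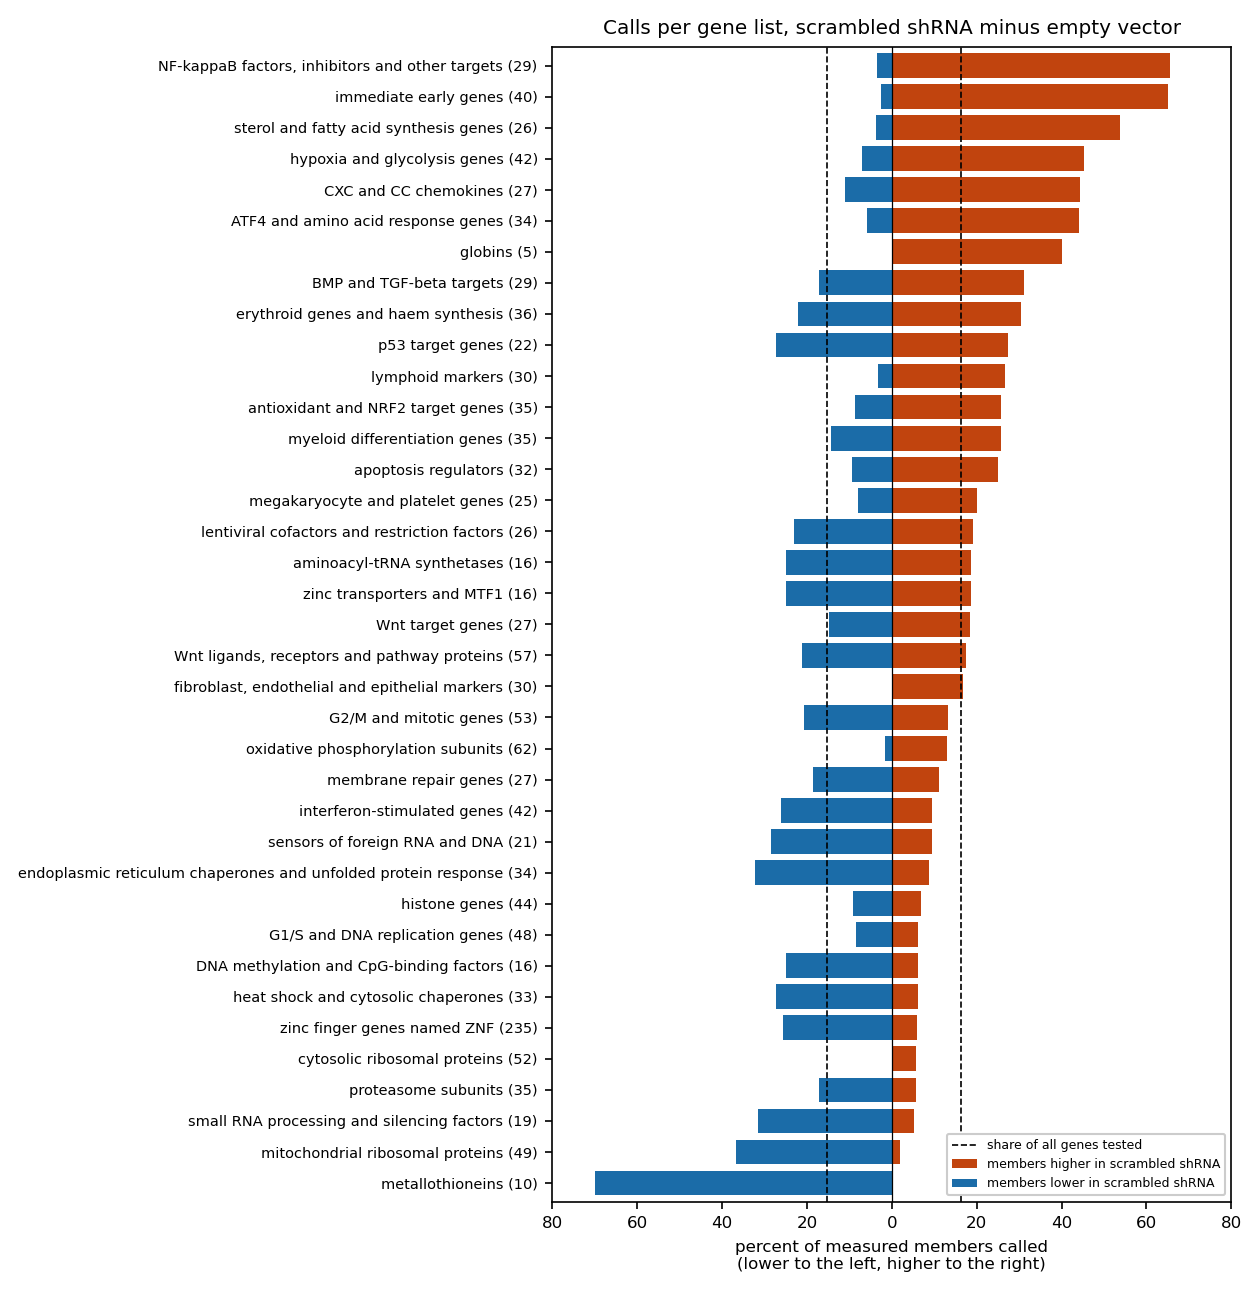
For each of 37 gene lists, with the number of measured members in parentheses, bars give the percent of members that were higher (right) or lower (left) in scrambled shRNA at an adjusted p under 0.05 in limma; dashed lines give the shares over all genes, 16.2% and 15.3%. The NF-kappaB, immediate early and sterol lists reach farthest to the right and the metallothioneins farthest to the left; lists of few members, such as 5 globins, move in large steps.

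Among the largest deficits outside these lists, PER2, a clock repressor, read 7.86, 8.02 and 7.86 against 6.35, 6.35 and 6.29, 2.99-fold lower, while its dim second probe set stood at 0.17. PTPN22, a tyrosine phosphatase of blood cells, read 6.62, 6.55 and 6.31 against 4.89, 4.96 and 4.89. HNMT, which degrades histamine, was 2.81-fold lower at its brightest probe set, but 3 dimmer ones stood at -0.36, 0.08 and 0.30, the last of them past the threshold. PTPN22 also had dimmer probe sets, at -0.68 and -0.07. LY96, the co-receptor MD-2 of TLR4, read 6.07, 6.12 and 6.03 against 4.50, 4.45 and 5.22, and CALB1, a calcium-binding protein, 6.56, 6.92 and 6.62 against 5.68, 5.14 and 5.40. The scrambled shRNA replicate 3 value of LY96 was the highest of its group, and the difference of -1.35 was -1.60 without it. MFSD6, a membrane transporter, was at -1.29, but its scrambled arrays read 5.34, 5.14 and 4.05, the lowest being replicate 3, and the difference was -0.90 without that array.

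Knockdown minus overexpression is a further contrast of a lentiviral with a nucleofected state, and it shares no array with the controls; it also carries opposite changes of CXXC5. It called 1835 genes (15.3%), 1073 higher (8.97%) and 762 lower (6.37%). The count was 1094 without overexpression replicate 2 and 1190 without overexpression replicate 3. Of its calls, 839 were also called between the controls, which is 45.7% of its list and 22.3% of the controls' list. Over all genes, 31.5% were called between the controls. Both contrasts use the same estimate of spread for a gene, which favours genes of small spread in both, so that share is no like baseline. Of these 839, 382 went the same way, 240 higher and 142 lower, and 457 went opposite ways, 189 higher and 268 lower in scrambled shRNA. The difference between both contrasts itself was called for 2442 genes, or 20.4%, with 975 positive (8.15%) and 1467 negative (12.3%), and 217 genes (1.81%) were called with at least 1 log2 between the contrasts. Among the 49 genes at least 2-fold higher in scrambled shRNA, the other contrast called 8 the same way and 22 the opposite way, and among the 47 lower ones, 7 and 13. All 6 lentiviral arrays lay above all 6 nucleofected arrays in 9 of the 49, against 4.55% of all genes, and below them in 9 of the 47, against 2.79%. The 49 and 47 genes were chosen on the control arrays, which are part of this separation. Part of the condition was thus met in advance, and the shares over all genes are no like baseline.

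Among the 240 genes higher in both contrasts, DLK1, a membrane protein that inhibits differentiation, read 8.97, 8.76 and 8.79 in empty vector and 10.14, 10.33 and 10.30 in scrambled shRNA arrays (1.42), with 0.77 in the other contrast. TUBB2B, a beta tubulin, gave 0.99 and 0.92, FN1 0.90 and 0.74, CDKN1C, a cyclin-dependent kinase inhibitor, 0.90 and 0.76, and the collagenase MMP1, which was dim, 0.80 and 1.59. HBZ gave 0.82 and 0.72, HMGCS1 0.80 and 0.73, and VEGFA 1.11 and 0.72. Genes lower in both were LY96 (-1.35 and -1.90), CALB1 (-1.29 and -1.39) and HNMT (-1.49 and -0.95). STK4, a Hippo pathway kinase, gave -0.92 and -1.12, but its control difference was -0.53 without scrambled shRNA replicate 3 and lost its call without any of 5 single arrays. ATP1B4 gave -0.94 and -0.92, and its control difference was -0.56 without scrambled shRNA replicate 3; the call ended without that array or empty vector replicate 1.

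By list, the ATF4 genes had 15 higher and 2 lower members between the controls and 16 and 0 in the other contrast, the sterol genes 14 and 1 against 11 and 2, and the hypoxia genes 19 and 3 against 11 and 2. The NF-kappaB list had 19 higher and 1 lower between the controls and 1 and 9 in the other contrast, and the immediate early genes 26 and 1 against 1 and 13. Endoplasmic reticulum chaperones had 3 higher and 11 lower between the controls and 13 and 1 in the other contrast. ZNF genes had 14 higher and 60 lower against 25 and 11. Thus the ATF4, hypoxia and sterol lists had more higher than lower calls in both contrasts. The NF-kappaB, immediate early, endoplasmic reticulum and ZNF lists had their majorities on opposite sides. Further lists did so as well, among them the metallothioneins, with 0 higher and 7 lower against 3 and 0. Mitochondrial ribosomal proteins had 1 and 18 against 7 and 1. Over all genes, the other contrast called 8.97% higher and 6.37% lower. Heat shock and cytosolic chaperones had 2 higher and 9 lower between the controls and 1 and 3 in the other contrast.

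The levels in all 4 groups differed in form between these genes. CXCL1 averaged 5.86 in empty vector, 9.35 in scrambled shRNA, 6.22 in overexpression and 5.70 in knockdown arrays, so the scrambled arrays alone were high. LTB averaged 7.83, 10.995, 9.20 and 7.83 in the same order. Of the 49 genes at least 2-fold higher, 45 had all scrambled arrays above the other 9 arrays, where 6.51% of all genes did, and 26 had all empty vector arrays below the other 9, where 3.5% did. MT1X averaged 10.55, 7.24, 6.52 and 8.04, so the empty vector arrays were the ones set apart. Of the 47 genes at least 2-fold lower, 28 had the scrambled arrays below the other 9 and 25 had the empty vector arrays above the other 9, where 7.37% and 3.1% of all genes did. Both held for 14 and neither for 8. The 49 and 47 genes were chosen by a large difference between the same control arrays. That choice favours such separation, so the shares over all genes are no like baseline. SLC30A1 averaged 9.75, 8.41, 8.12 and 9.59, and ZNF143 8.78, 9.85, 9.86 and 8.79, so that scrambled shRNA paired with overexpression and empty vector with knockdown.

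**Figure D4:**
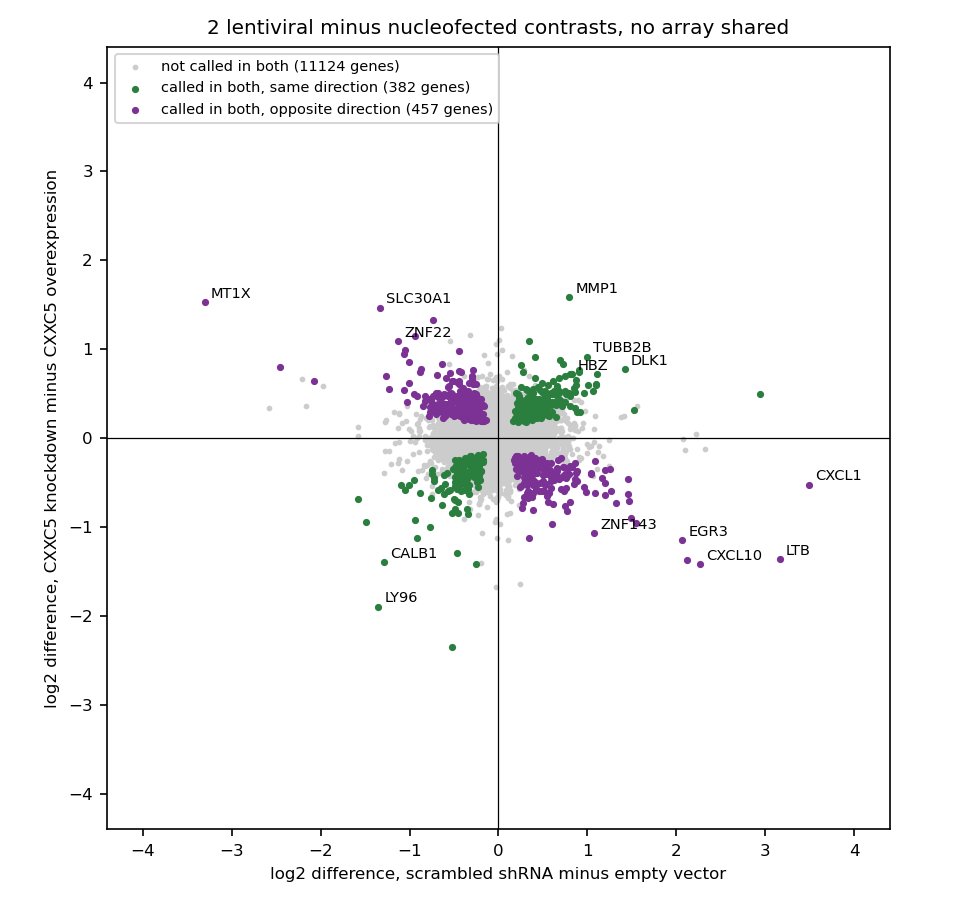
Each point is 1 of 11963 genes, with the log2 difference of scrambled shRNA minus empty vector on the horizontal axis and of knockdown minus overexpression on the vertical axis; green points (382 genes) passed an adjusted p under 0.05 in both with the same direction and purple points (457 genes) with opposite directions. CXCL1, LTB, CXCL10 and EGR3 lie at the lower right, MT1X, SLC30A1 and ZNF22 at the upper left, and DLK1, TUBB2B and HBZ at the upper right.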

How the data were processed

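The deposited table holds 1 log2 expression value per probe set and array. The authors' processing notes name Affymetrix Expression Console; for its version and summarisation, nothing was given in the sources used here, and the log2 scale was inferred from the values. Of 22277 probe sets, 62 controls, 1043 with several gene symbols and 2108 with none were left out, and each gene was read by its brightest probe set. limma 3.58.1 (R 4.3.3) fitted 1 coefficient per group to all 12 arrays (lmFit and eBayes, 8 residual degrees of freedom). Two-sided p-values were adjusted by Benjamini-Hochberg over all 11963 genes, and genes with an adjusted p under 0.05 were called. The procedure was tested on simulated data. Precision is limited by the number of arrays.

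Named genes are the 15 largest differences each way without overlap, up to 4 called members per list, and the 5 leading genes each way of both contrasts and of their difference; other genes named were chosen after their values were seen. The comparison, members and lists were chosen with earlier results of these data known. Alternatives were other normalizations, filters, probe set rules, priors, thresholds and arrays left out. Promoters are from RefSeq (GRCh38.p14), with windows for 9563 of the genes. No probe set used here was paired with CXXC5, so labels were not checked against it.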

Additional observations from a re-analysis of the deposited data

Results flagged for a closer look

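The difference between both lentiviral minus nucleofected contrasts, tested as an interaction in limma, was past an adjusted p under 0.05 for 2442 genes. The 5 largest positive differences, scrambled minus empty vector being above knockdown minus overexpression, were 4.53 log2 for LTB, 4.01 for CXCL1, 3.68 for CXCL10, 3.49 for IER3 and 3.22 for EGR3. The 5 largest negative ones were -4.83 for MT1X, -3.26 for MT2A, -2.92 for MT1E, -2.87 for MT1H and -2.80 for SLC30A1. In LTB, CXCL1, CXCL10, IER3, EGR3, MT1X, MT2A and SLC30A1 both contrasts were called, in opposite directions; in MT1E and MT1H knockdown minus overexpression did not pass.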

How the results depend on the processing

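The 3768 calls between the controls were 2593 to 3586 with single arrays left out, lowest without empty vector replicate 2, 2086 at an adjusted p under 0.01 and 96 with a difference of at least 1 log2. Other settings gave 3182 to 4303 called genes, and 5539 of 19064 probe sets passed on their own. With the replicate number as a block, 4106 genes were called, 3686 of them among the 3768. The numbers did not pair the controls: deviations of same-numbered arrays correlated at 0.05, -0.09 and 0.13, and not every array correlated best with its own number. For other pairs of groups in the fit, same-numbered arrays correlated at -0.12 (empty vector and knockdown replicate 2) to 0.39 (overexpression and knockdown replicate 1). Of the 96 genes, 95 kept their call in every setting they entered; THBS1 lost it with the mean of probe sets. Leaving out the dimmest 40% of genes moved the share of higher calls from 51.4% to 44.9%.

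Knockdown minus overexpression gave 1094 to 1496 calls with single arrays left out, 3172 with array weights, 728 at an adjusted p under 0.01 and 29 with at least 1 log2. The difference of both contrasts gave 1864 to 2421, 1344 and 217 in the same order, without array weights. No named gene changed sign in a setting. Of 37 lists, 9 had their majority of calls turned in at least 1 setting: apoptosis regulators, erythroid and membrane repair genes with the mean of probe sets, and 6 others with a single array left out or with median centring. The median changed sign for 8 lists, none with a main median beyond 0.08 in size; that of BMP and TGF-beta targets went from -0.0041 to 0.066 without scrambled shRNA replicate 3. Of 2169 recomputed values of named genes, 123 fell short of the threshold, and 177 of 1036 list counts moved by over 1.5 times. The causes were not tested.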
